A study of Mus musculus with 8 samples.

Results

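The dystrophin complex genes examined here were 9 genes taken as a list, out of 27179 genes in the expression table: *Dmd* and *Utrn*, which code for dystrophin and utrophin, *Dag1* for dystroglycan, *Sgca*, *Sgcb*, *Sgcd* and *Sgce* for sarcoglycans, *Sntb1* for beta-1-syntrophin and *Dtna* for alpha-dystrobrevin. All 9 had a row in the table by Entrez identifier, and all 9 passed the filter on low values. C2C12 cells, an immortalized mouse myoblast line that fuses into myotubes when serum is withdrawn, were sampled in growth medium (GM, 10% fetal bovine serum, about 50% confluent) or 3 days after a switch to differentiation medium (3d DM, 2% horse serum, over 90% confluent at the switch). The labels give no genetic change and no drug for either state. MeRIP-seq, in which fragmented mRNA is precipitated with an antibody against N6-methyladenosine (m6A), gave 2 immunoprecipitated (IP) and 2 input libraries per state. The records do not say whether replicates came from separate cultures, so the spread between libraries behind the p-values may be technical. As 1 cell line in culture, the cells had no nerve, load or surrounding muscle fibres.

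The dystrophin complex links the actin cytoskeleton of a muscle fibre to the extracellular matrix. Dystrophin or utrophin binds actin inside the cell and the membrane protein dystroglycan, dystroglycan binds laminin outside, the sarcoglycans sit beside dystroglycan in the membrane, and syntrophins and dystrobrevins are adaptors on the inner side. Loss of dystrophin causes Duchenne muscular dystrophy, and loss of some, but not all, single sarcoglycans causes limb-girdle dystrophies. Utrophin is the widely expressed relative of dystrophin and is found over the whole membrane of immature muscle fibres. m6A is placed on adenosines in short sequence contexts, most often around stop codons and in long exons of mRNA.

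The labelled states were checked with 10 marker genes. *Myog*, the myogenic factor of differentiation, had values of 1008 and 221 in GM, against 5392 and 11502 in 3d DM, with replicate 1 first here and throughout, and *Mki67*, a proliferation marker, was 3586 and 3659 in GM, against 446 and 760.4 in 3d DM. *Myh3*, *Mymk*, *Ckm* and *Des* were also higher in 3d DM, by 6.26, 4.82, 5.38 and 1.36 on the log2 scale, and *Top2a*, *Ccnb1* and *Myf5* were lower (differences of -2.69, -3.08 and -2.14), which made 9 of the 10 past the threshold (limma, largest adjusted p = 0.00610). *Myod1*, with a log2 difference of -0.10 (adjusted p = 0.921), was the exception, and its sign turned on rescaling. The 11 markers of adipocytes, osteoblasts, endothelium, blood and neurons had no value above 8.55, 5 of them were at 0 in all libraries, and their summed values ranged from 4.0 to 9.6 in GM and from 8.9 to 11.9 in 3d DM. The 2 GM libraries were not alike. *Myog*, *Myh3*, *Mymk* and *Ckm* were 3.91 to 6.88 times as high in GM replicate 1 as in GM replicate 2, so that their differences ran from 5.15 to 7.25 without GM replicate 1 and from 2.96 to 5.28 without GM replicate 2, and 7 of the 8 complex genes above 0 in GM were higher in replicate 1. Likewise, 8 of the 9 complex genes were higher in 3d DM replicate 2 than in replicate 1. Both counts went the same way as an offset of whole libraries. The scale estimated for each library by median of ratios, in log2 units, was 0.231 for GM replicate 1 and -0.0027 for GM replicate 2. For 3d DM it was -0.366 for replicate 1 and 0.138 for replicate 2. The matching shares over all tested genes were not counted, so neither count can be read as particular to the complex genes. The largest entry of each library took 24.4 to 41.3% of that library's total, with the highest share in 3d DM replicate 1.

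More of the complex genes rose than fell during differentiation. Of the 9 genes, 5 (*Dmd*, *Dag1*, *Sgca*, *Sgcb* and *Sntb1*) were higher in 3d DM and 0 were lower at an adjusted p under 0.05 by limma on log2(value + 1), where 7.01% of the 11406 tested genes were higher and 9.96% were lower. At an unadjusted p under 0.05 the counts were also 5 and 0. *Dmd* passed the filter on low values only through 3d DM, where it is high, so its place among the 5 was built in. It is also among the 7 genes of each of the 2 counts below. With the filter at 3 libraries *Dmd* dropped out and 4 complex genes were higher. In 7 of the 9 genes both 3d DM values lay above both GM values, as in 16.8% of all tested genes. *Sgce* had both 3d DM values below both GM values, as in 37.0% of all tested genes, and *Dtna* had overlapping groups. The median log2 difference (3d DM minus GM) of the 8 complex genes above 0 in GM was 1.17, beside -0.22 over all tested genes. The standard errors of this fit follow a gene's mean level and not its own replicates, so these p-values do not measure the spread of a given gene. After rescaling the libraries by median-of-ratios factors, the median of all genes was 0.00 and 7 complex genes were higher and 0 lower, with *Utrn* and *Sgcd* added. In that fit the standard errors also follow each gene's own replicates (prior degrees of freedom 3.82, against infinite), so both the scale and the variance estimate changed. The calls over all genes went from 800 higher and 1136 lower to 1365 higher and 1281 lower, together 23.2% of those tested. With a library left out the count was 4 without GM replicate 1, 2 without GM replicate 2, 0 without 3d DM replicate 1 (5 higher and 0 lower at an unadjusted p under 0.05) and 1 without 3d DM replicate 2. The fits without a 3d DM library have prior degrees of freedom of 4.26 and 4.18 and those without a GM library infinite ones, so these counts differ in the variance estimate as well as in the library left out. In bulk RNA, more cells that express a gene and more RNA per cell cannot be told apart.

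**Figure D1:**
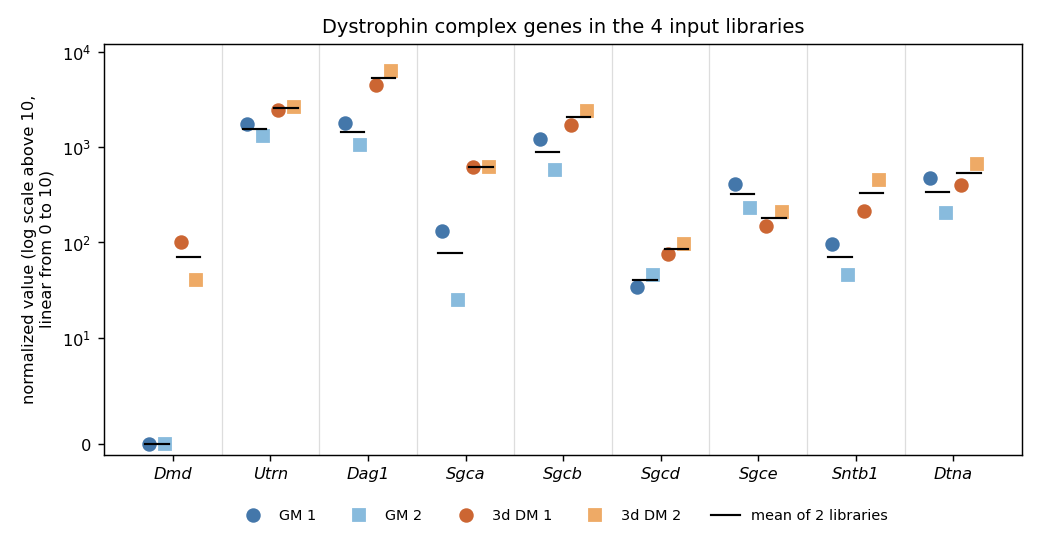
Normalized value (vertical axis, log scale above 10 and linear from 0 to 10) of the 9 complex genes in the 4 input libraries, with GM in blue, 3d DM in orange, circles for replicate 1, squares for replicate 2 and a black line at the mean of each state. *Dmd* is at 0 in both GM libraries, *Dag1* and *Sgca* are well above their GM values in both 3d DM libraries, *Sgce* lies lower in 3d DM and the 2 states of *Dtna* overlap.

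Among the cytoplasmic linkers, *Dmd* (Entrez 13405, chrX:82814664-85205050, GRCm38) was listed at 0 in both GM libraries and at 100.2 and 40.1 in the 3d DM libraries. The 2 states do not overlap, and no fold is given against a group at 0 (limma, adjusted p = 1.58e-11, or 0.0520 without 3d DM replicate 1). The table lists 11562 and 10601 of its 27179 genes at 0 in the GM libraries. Of the 11406 tested genes, 14 were at 0 in both GM libraries. None of 8 housekeeping genes was at 0 in any library, but their lowest value was 127.8, above both 3d DM values of *Dmd*. *Dmd* passed the filter on low values only through the 3d DM libraries, where it is high, so a difference was built in and its p-value is no independent support. With the filter at 3 libraries it dropped out and 4 of the complex genes were higher.

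*Utrn* (Entrez 22288, chr10:12382187-12869888) was far more abundant, at 1762 and 1320 in GM, against 2415 and 2656 in 3d DM. Both 3d DM values lay above both GM values, and the log2 difference of 0.73 ± 0.42 (SE, n = 2 per state) missed the threshold (limma, adjusted p = 0.262). After rescaling it was 0.96 ± 0.20 with an adjusted p of 0.0216. Per kilobase of the longest coding transcript, the mean value in 3d DM was 4.70 for *Dmd* and 205 for *Utrn*, and in GM it was 0 and 124. At this stage the *Utrn* transcript was the more abundant of this pair in every library.

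*Dag1* (Entrez 13138, chr9:108204861-108263977) codes for a precursor that is cut into alpha-dystroglycan, which binds laminin, and membrane-spanning beta-dystroglycan. Its values were 1793 and 1057 in GM, against 4482 and 6190 in 3d DM. Both 3d DM libraries were at least 2 times as high as either GM library. The log2 difference was 1.94 ± 0.41 (SE, n = 2 per state), a 3.83-fold rise (limma, adjusted p = 4.30e-05). With a library left out it ran from 1.55 without GM replicate 2 (adjusted p = 0.0928) to 2.32 without GM replicate 1 (adjusted p = 0.00278), and the adjusted p was 0.0662 without 3d DM replicate 1 and 0.0793 without 3d DM replicate 2. Per kilobase, *Dag1* was the highest of the 9 genes, with means of 252 in GM and 942 in 3d DM.

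The 4 sarcoglycan genes did not move alike. *Sgca* (Entrez 20391, chr11:94962777-94976327), the sarcoglycan most restricted to striated muscle, was at 131 and 25.1 in GM, against 610.3 and 611 in 3d DM. The 3d DM values were almost equal, while the GM values differed 5.21-fold, with GM replicate 1 the higher as for the differentiation markers. Its log2 difference of 3.38 ± 0.48 (SE, n = 2 per state), a 10.4-fold rise, had an adjusted p of 7.67e-11 by limma. The size depended on the GM library kept, at 4.55 (23.4-fold, adjusted p = 9.10e-09) without GM replicate 1 and 2.21 (4.64-fold, adjusted p = 0.0273) without GM replicate 2. Without 3d DM replicate 1 or 2 the difference stayed at 3.38, but its SE was 0.99 and the adjusted p was 0.158 or 0.109.

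*Sgcb* (Entrez 24051, chr5:73632749-73647737), the partner that forms the core of the sarcoglycan complex with delta-sarcoglycan, was at 1212 and 581 in GM, against 1695 and 2396 in 3d DM. The states do not overlap, but the GM replicates differ more from each other than the nearest values of the 2 states do. The log2 difference was 1.26 ± 0.42 (limma, adjusted p = 0.0205), and this was the least firm of the 5 calls, since it was lost without any of the 4 libraries (adjusted p from 0.0684 without GM replicate 1 to 0.778 without GM replicate 2, with 0.204 without 3d DM replicate 1 and 0.251 without 3d DM replicate 2). *Sgcd* (Entrez 24052, chr11:46971077-47989451) was scarce, at 34.5 and 46.1 in GM, against 75.5 and 96.1 in 3d DM. Both 3d DM values were above both GM values, with a log2 difference of 1.07 ± 0.56 (limma, adjusted p = 0.200), which passed after rescaling at 1.30 ± 0.34 (adjusted p = 0.0436).

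*Sgce* (Entrez 20392, chr6:4674350-4747204), a relative of *Sgca* that is also expressed outside muscle, was the only complex gene with a negative difference. It was at 408 and 232 in GM, against 147 and 210.2 in 3d DM. The values of the 2 states do not overlap, although GM replicate 2 and 3d DM replicate 2 are close. The log2 difference of -0.80 ± 0.47 did not pass (limma, adjusted p = 0.279), nor did it after rescaling (-0.57 ± 0.25, adjusted p = 0.158). Per kilobase, the mean value in GM was 180 for *Sgce* and 45.3 for *Sgca*, and in 3d DM it was 101 and 354, so the order of this pair turned between the states.

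Of the adaptors, *Sntb1* (Entrez 20649, chr15:55636388-55907302) was at 95.9 and 45.2 in GM, against 212 and 448 in 3d DM. Replicates differed 2.12-fold in GM and 2.11-fold in 3d DM, and the lowest 3d DM value was still above the highest GM value. The log2 difference was 2.21 ± 0.49 (SE, n = 2 per state), a rise of 4.63-fold (limma, adjusted p = 1.04e-04, or 0.174, 0.0889 and 0.157 without GM replicate 2, 3d DM replicate 1 and 3d DM replicate 2). *Dtna* (Entrez 13527, chr18:23310006-23659719) was at 478 and 204 in GM, against 398 and 659.7 in 3d DM. Its GM replicate 1 value exceeded its 3d DM replicate 1 value. The difference of 0.71 ± 0.45 was not past the threshold as deposited (limma, adjusted p = 0.329) or rescaled (0.94 ± 0.34, adjusted p = 0.103).

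**Figure D2:**
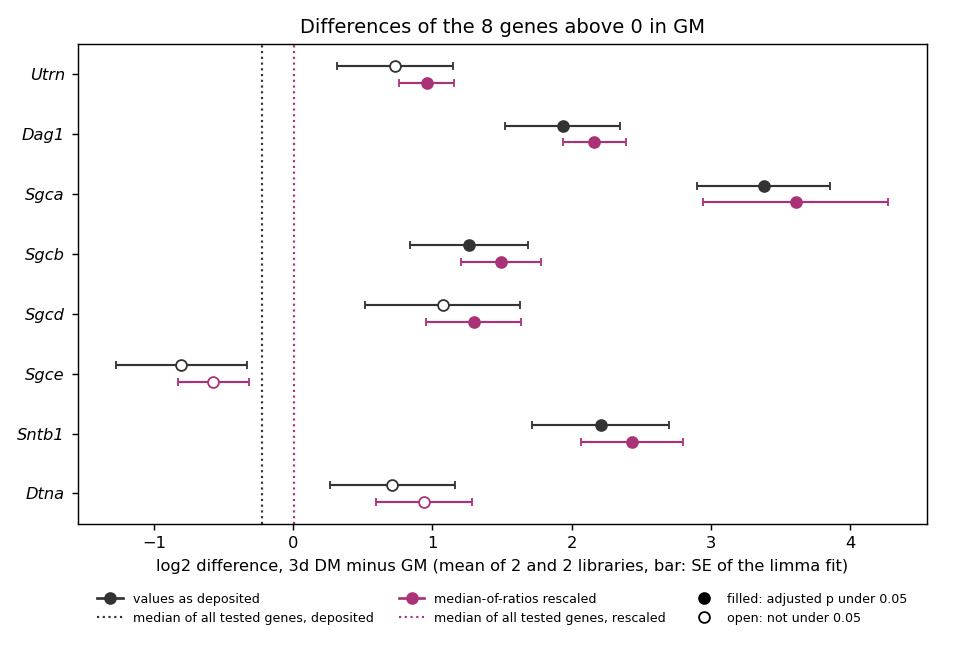
Log2 difference, 3d DM minus GM (horizontal axis, bars the SE of the limma fit on 2 and 2 libraries), of the 8 complex genes above 0 in GM, as deposited (grey) and after median-of-ratios rescaling (purple), with dotted lines at the median of all tested genes. Filled points have an adjusted p under 0.05. *Sgca* is the farthest right at 3.38, *Sgce* alone is left of 0, and *Utrn* and *Sgcd* are filled only after rescaling.

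The order of the mean values per kilobase in GM was *Dag1* (252), *Sgcb* (237), *Sgce* (180), *Utrn* (124), *Dtna* (88.3), *Sgca* (45.3), *Sgcd* (25.0), *Sntb1* (14.3) and *Dmd* (0). In 3d DM it was *Dag1* (942), *Sgcb* (540.2), *Sgca* (354), *Utrn* (205), *Dtna* (137), *Sgce* (101), *Sntb1* (67.1), *Sgcd* (53.1) and *Dmd* (4.70). In GM the library values of every neighbouring pair overlapped, except those of *Sgcd* with *Sntb1* and of *Sntb1* with *Dmd*. In 3d DM the overlapping neighbours were *Dtna* with *Sgce*, *Sgce* with *Sntb1* and *Sntb1* with *Sgcd*, and the other pairs were apart.

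The profiles most like those of 3 complex genes were sought over the 4 libraries, as the smallest distance between log2(value + 1) profiles centred on their own mean. For *Dmd* they were *Mybpc2* (distance 0.159), which codes for the fast skeletal myosin-binding protein C, *Otud7a* (0.298) and the fast myosin heavy chain gene *Myh2* (0.435). In GM, *Mybpc2* was at 1.04 and 1.0, *Otud7a* at 0 and 0, and *Myh2* at 19.95 and 18.06. Like *Dmd*, these genes passed the filter on low values only through the 3d DM libraries. Low GM and high 3d DM values were thus built in, and the likeness cannot be read as a shared program. For *Sgca* the nearest profiles were *Gm17455* (0.297), *Ttn* (0.317), which codes for titin, and *Mapt* (0.324). For *Dag1* they were *Mief2* (0.0680), *Napb* (0.0770) and *Coro6* (0.0920). *Ttn* shared the uneven GM values of *Sgca*, at 4063 and 621 in GM, against 17216 and 14642 in 3d DM. So did *Gm17455*, at 19.2 and 2.02 in GM, and *Mapt*, at 40.4 and 5.04. These genes were picked by likeness over the same 4 libraries, so the shared unevenness follows from the choice.

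Of 15 other complex genes and direct partners, 11 were tested, of which 5 were higher, 1 was lower and 5 did not pass (limma, where 17.0% of all tested genes were called in either direction), with a median log2 difference of 0.92. *Cav3*, the muscle caveolin, went from 4.19 and 4.01 to 548 and 756 (6.98, adjusted p = 4.12e-33). *Sync*, which codes for the dystrobrevin-binding intermediate filament protein syncoilin, went from 446 and 246 to 585 and 1011 (1.21, adjusted p = 0.0395). This call was lost when any 1 library was left out (adjusted p from 0.146 to 0.781). *Nos1*, the neuronal nitric oxide synthase bound by syntrophin, was at 7.51 and 0.0064 in GM, against 26.1 and 46.9 in 3d DM (adjusted p = 5.45e-05, or 0.0511, 0.217 and 0.206 without GM replicate 2, 3d DM replicate 1 and 3d DM replicate 2). Like *Dmd*, *Cav3* and *Nos1* passed the filter only through 3d DM, and with the filter at 3 libraries both dropped out and 4 partner genes were called. *Dtnb*, the dystrobrevin gene best known outside muscle, was the gene that fell, from 92.5 and 91.3 to 12.4 and 34.6 (-2.09, adjusted p = 0.00332). That difference was -1.38 without 3d DM replicate 1 (adjusted p = 0.245) and -2.79 without 3d DM replicate 2 (adjusted p = 0.0491). The number called was 4 without GM replicate 1, 3 without GM replicate 2, 1 without 3d DM replicate 1 and 2 without 3d DM replicate 2. *Sgcz*, *Sntg1* and *Sntg2* were listed at 0 in all 4 libraries.

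No gene for the enzymes that place the laminin-binding sugar on dystroglycan passed the test with the deposited values. Of 18 such genes 16 were tested, and 0 were called by limma (1 at an unadjusted p under 0.05). Over all tested genes 17.0% were called in either direction. The median log2 difference of the 16 was 0.05. After rescaling 1 of them was called, where 23.2% of all tested genes were. *Pomgnt2* (0.68, adjusted p = 0.543), *Dpm2* (-0.51, adjusted p = 0.550) and *Pomt1* (-0.48, adjusted p = 0.600) were far from the threshold. Of 7 genes for extracellular ligands of dystroglycan, 4 were tested and 0 called (2 at an unadjusted p under 0.05), beside the same 17.0%. *Lama2*, the laminin chain of muscle basement membrane, was at 511 and 212 in GM, against 565 and 785 in 3d DM (1.01, adjusted p = 0.107). *Hspg2*, which codes for perlecan, was at 5829 and 6268 in GM, against 9162 and 12489 in 3d DM (0.82, adjusted p = 0.165, or 0.0219 after rescaling). *Lama5* (-0.37, adjusted p = 0.653) and *Agrn* (0.33, adjusted p = 0.739) were further from the threshold.

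m6A peaks were called on 6 of the 9 complex genes in at least 1 IP library, where 75.1% of all tested genes had one. *Utrn*, *Dag1* and *Sgcb* had a peak in all 4 libraries, as did 42.0% of all tested genes. *Sntb1* and *Dtna* had peaks in each 3d DM library but not in GM, *Sgca* in 3d DM replicate 2, and *Dmd*, *Sgcd* and *Sgce* in none. The share of all tested genes with peaks in 3d DM only was not counted. The pattern therefore cannot be read as particular to the complex genes. The number of complex genes with a peak was 3 and 3 in GM, against 5 and 6 in 3d DM (difference 2.5, two-sided exact permutation test, p = 0.333, the smallest that 2 against 2 libraries allow). Over all genes, the number with a peak was 7574 and 7164 in GM, against 7471 and 6294 in 3d DM. The input values of *Sntb1* and *Sgca* were also lower in GM, and peak calling needs reads. For these genes less methylation and less RNA cannot be told apart. The input values of *Dtna* overlapped, at 478 and 204 in GM, against 398 and 659.7 in 3d DM. It had no peak in GM replicate 1 and had one in 3d DM replicate 1, where its input was lower. The cause was not tested. *Sgce* had no peak at a mean input value of 320 in GM and 179 in 3d DM, and *Sntb1* had peaks in 3d DM at 330. Per kilobase of transcripts of 1776 and 4919 bases, these values were 180, 101 and 67.1. Why *Sgce* had no peak was not tested.

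Merged peaks on the complex genes numbered 9 and 8 in GM, against 16 and 9 in 3d DM (difference 4.0, two-sided exact permutation test, p = 0.667). The high count of 16 came from *Utrn*, which had 5 and 3 merged peaks in GM, against 9 and 3 in 3d DM, and from *Sntb1*, with 3 and 1 in 3d DM. Without 3d DM replicate 1 the difference was 0.5. *Dag1* had 3 and 3 in GM, against 2 and 2 in 3d DM, and its peaks covered 2951 and 3010 bases in GM, against 3096 and 3206 in 3d DM, so the lower number went with wider peaks. The largest fold enrichment of IP over input RNA on a gene was 9.39 for *Sgcb* in GM replicate 2, 8.69 for *Dag1* in GM replicate 1, 7.36 for *Utrn* in 3d DM replicate 1, 5.29 for *Dtna* and 5.22 for *Sntb1* in 3d DM replicate 2, and 2.70 for *Sgca* in 3d DM replicate 2. The *Sgcb* peak of 9.39 covered 60 bases over the start codon and was called in that 1 library.

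**Figure D3:**
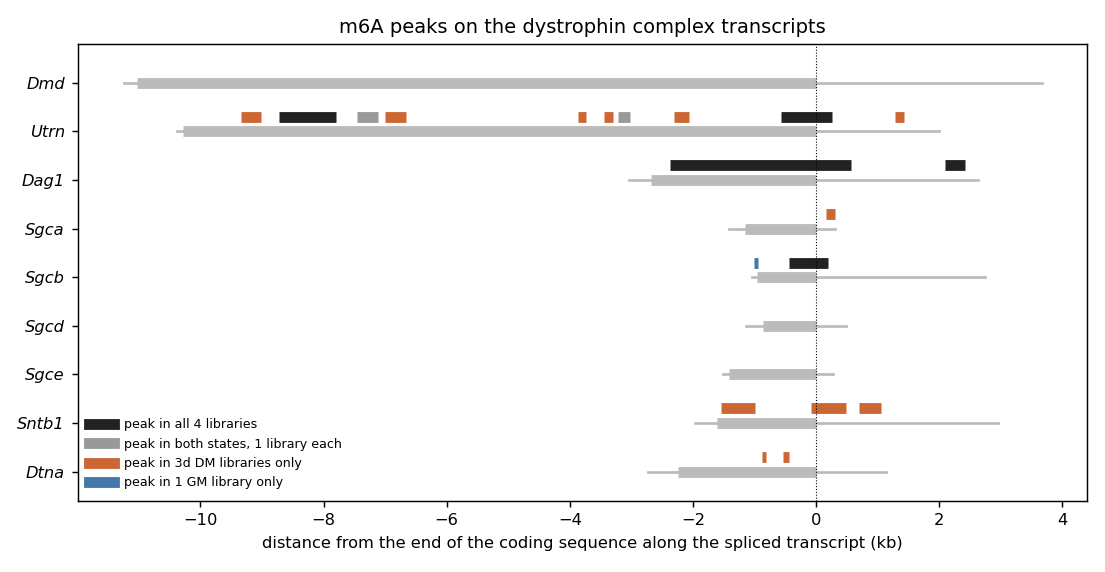
Peak positions on the longest coding transcript of each complex gene, as distance in kb from the end of the coding sequence (horizontal axis). Thick grey is coding sequence, thin grey is untranslated, and coloured bars are peaks found in all 4 libraries (black), in 1 library of each state (grey), in 3d DM libraries only (orange) or in 1 GM library only (blue). Black bars of *Utrn*, *Dag1* and *Sgcb* cross the end of the coding sequence, and *Dmd*, *Sgcd* and *Sgce* carry none.

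Overlapping peaks made 20 positions, of which 5 were found in all 4 libraries. The 3 broad positions at the end of the coding sequence were on *Utrn* (chr10:12383927-12406539, exons 69 to 74 of 74), *Dag1* (chr9:108206691-108209636, in exon 4 of 4, which holds most of the coding sequence) and *Sgcb* (chr5:73635312-73639896, exons 4 to 6 of 6). *Dag1* had another in the 3 prime UTR (chr9:108204844-108205173), with its middle 2253 bases past the last coding base. *Utrn* had another in coding exons 13 to 19 (chr10:12714169-12733952), over codons 521 to 830 of the 3430, in the rod of spectrin-like repeats. The *Sntb1* position shared by both 3d DM libraries (chr15:55638847-55639417) also crossed the end of the coding sequence. The 2 *Dtna* peaks, 1 in each 3d DM library, lay in different coding exons, 16 and 20 of 25, so no *Dtna* position was found in more than 1 library.

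The sequences below each come from an antibody-enriched stretch, though not always from its middle. Each is 25 bases of the coding strand from GENCODE M21 transcripts (mm10), with 1 match to the m6A context DRACH in capitals (A, G or T, then A or G, then A, C, then A, C or T). Only the bases common to all libraries with the peak were searched. The match shown is the GGACT nearest to the middle of those bases, or failing that the nearest GGACA or GGACC, or failing that any match. All genes shown lie on the minus strand.
Utrn, end of coding sequence, exon 70, chr10:12405975-12405999: acacatctgaGGACTcagaacttat
Utrn, coding exon 17, chr10:12720901-12720925: cagagctgctGAACTggattttgaa
Dag1, 3 prime UTR after the stop codon, chr9:108207047-108207071: agactttgggGGACTtttttatttt
Dag1, late 3 prime UTR, chr9:108204991-108205015: tcagactctgAGACAgagagccaat
Sgcb, coding exon 6, chr5:73635616-73635640: cctccagcggGGACCagtcagggag
Sntb1, 3 prime UTR, chr15:55639275-55639299: ccgtgcctcaGGACTgtgacatcag
Sgca, 3 prime UTR, chr11:94962875-94962899: tagcctacttGGACCtccggctcca
The adenosine of the GGACT lay 364 coding bases before the last coding base in *Utrn*, 203 bases past it in *Dag1* and 51 bases past it in *Sntb1*. In *Dag1* this match was 1017 bases from the middle of the 2471 common bases, in a position that is 2946 bases long. The match shown was 116 bases from the middle of 269 common bases in *Sgcb*, and 80 from the middle of 301 in *Sntb1*. The other matches shown were 3 to 22 bases from the middle. GGACT, searched on the transcript strand, was in 3 of the 5 positions of all 4 libraries when their whole length was searched, which in *Sgcb* includes 1 outside the common bases. Of all windows of the same length on the 9 transcripts, 54.7% held it for the *Utrn* end position, 58.2% for the *Utrn* exon 13 to 19 position, 92.5% for the long *Dag1* position, 26.8% for the *Dag1* late UTR position and 45.4% for the *Sgcb* position. DRACH matches per kilobase were 27.2 inside and 23.9 outside the peaks of *Utrn*, 22.9 and 15.1 for *Dag1*, 23.3 and 20.7 for *Sgcb*, 18.8 and 15.7 for *Sntb1*, 26.7 and 24.8 for *Sgca*, and 18.5 and 20.6 for *Dtna*. The 3 transcripts without a peak had 24.4 (*Dmd*), 24.1 (*Sgcd*) and 23.1 (*Sgce*) per kilobase, and *Dmd*, with 364 matches over 14910 bases, had the most. A match is a description of the letters and not a mapped m6A site.

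Fold enrichment at the 5 shared positions was higher in 3d DM at both *Utrn* positions. At the *Utrn* exon 13 to 19 position it was 3.28 and 3.36 in GM, against 4.69 and 4.96 in 3d DM. The replicates lay close together and the states apart, with a log2 difference of 0.54 (two-sided exact permutation test, p = 0.333, the smallest possible). At the *Utrn* end position it was 2.43 and 2.91 in GM, against 2.98 and 3.79 in 3d DM (0.34, p = 0.333 by the same exact test). The states did not overlap there either, though GM replicate 2 and 3d DM replicate 1 were nearly equal. Both 3d DM folds lay above both GM folds at 2 of the 5 positions, and did so at 9.30% of the 6055 positions found in all 4 libraries on any gene, while 21.7% of those had both 3d DM folds below. The long *Dag1* position was at 7.29 and 5.02 in GM, against 5.33 and 5.82 in 3d DM (-0.12, exact p = 1.0). The late *Dag1* position was at 4.96 and 4.35 in GM, against 4.06 and 6.12 in 3d DM (0.10, exact p = 1.0), so enrichment over input on *Dag1* overlapped between the states while its input value differed 3.83-fold. The *Sgcb* position was at 3.57 and 1.93 in GM, against 1.83 and 2.58 in 3d DM (-0.27, exact p = 0.667). The median of the 5 positions, taken within each library, was 3.57 and 3.36 in GM, against 4.06 and 4.96 in 3d DM. Its log2 difference was 0.37 (two-sided exact permutation test, p = 0.333). This median falls on different positions in different libraries. The middle of the 5 single differences was 0.10, at the late *Dag1* position. Over the 6055 positions the median of the single differences was -0.11.

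**Figure D4:**
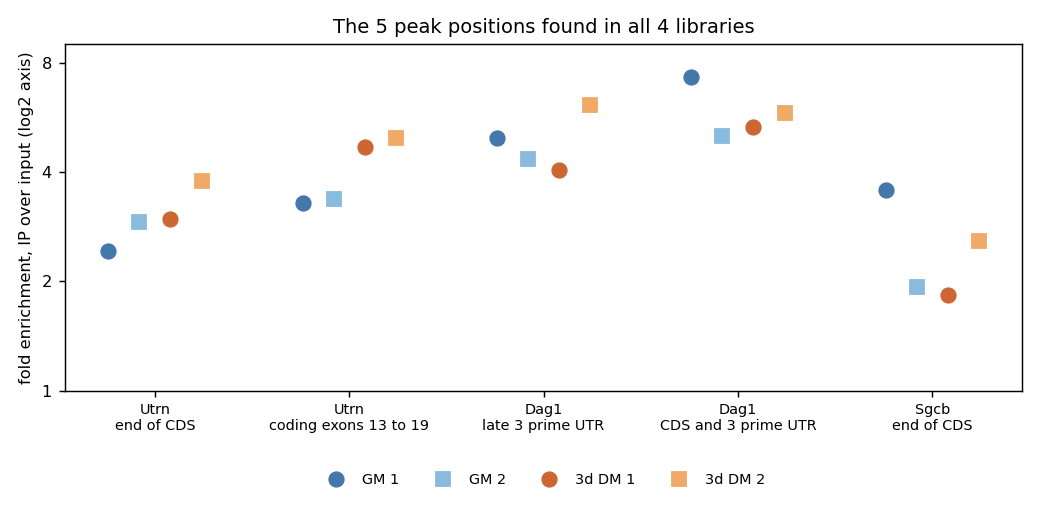
Fold enrichment of IP over input RNA (vertical axis, log2 scale) at the 5 peak positions found in all 4 libraries, with 1 point per library, GM in blue, 3d DM in orange, circles for replicate 1 and squares for replicate 2. The 3d DM points lie above the GM points at both *Utrn* positions, and the states overlap at both *Dag1* positions and at *Sgcb*.

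Among the 11 tested partner genes, 10 carried a peak in some library and 5 did so in all 4, where the shares over all tested genes were 75.1% and 42.0%. Among the 16 tested dystroglycan glycosylation genes the counts were 14 and 10, and among the 4 tested ligand genes 3 and 1. *Cav3* and *Drp2* had a peak line in each 3d DM library but not in GM, the pattern of *Sntb1*, and *Dtnb*, which fell, had 4 and 3 lines in GM and 0 in 3d DM. Where lines were missing, the input values were 4.19 and 4.01 for *Cav3* and 477 and 284 for *Drp2* in GM, and 12.4 and 34.6 for *Dtnb* in 3d DM. The cause of the missing lines was not tested, and the share of all tested genes with such patterns was not counted.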

How the data were processed

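C2C12 myoblasts in GM and 3d DM were analysed from processed MeRIP-seq and RNA-seq files, with 2 IP and 2 input libraries per state, grouped by the deposit's labels. The authors used HISAT2 (v2.1.0) with mm10 after adaptor trimming, and exomePeak was run at the sample level with a stated threshold of P ≤ 0.05. The deposited peak lists have a line per coding transcript of a peak, with its p-value and its fold (ratio) of IP to input RNA. The deposited expression table holds a normalized signal named by the authors for TMM, linked in the methods to edgeR. Its column totals are nearly equal and its low values are not whole, so read numbers and depth are unknown, and no counting error is given. Such adjustment could narrow or widen the spread between replicates.

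Because the values are not counts, limma (3.58.1, R 4.3.3) was fitted to log2(value + 1) with an intensity trend for the 11406 genes that reached a value of 25.1, which is 2 cpm of a column's total, in 2 or more of 4 libraries, with Benjamini-Hochberg adjustment over all of them at 0.05. A fold change on this scale understates the change of low genes. Peak lines of a gene on the same strand sharing at least 1 bp of exon were merged, and peaks were matched to genes by symbol. The fold of a position is the median over its lines. The states were compared with the exact permutation test over libraries, two-sided. Transcripts are those with the longest coding sequence in GENCODE M21, and gene positions are from RefSeq (GRCm38.p6). The limma fit was checked on simulated data. Scripts ran in Python 3.11.15 with matplotlib 3.10.9 for plots and pandas 2.3.3 with numpy 2.4.6 for tables.

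The 9 genes, the partner, glycosylation, ligand and marker lists and the tests were chosen with earlier results of these data known. The text names all 9 genes, the 4 genes of each further list with the smallest adjusted p and any past the threshold, all state markers, the 3 nearest profiles of *Dmd*, *Sgca* and *Dag1*, and, for peaks, the largest fold on each gene and every position of all 4 libraries. *Sgcz*, *Sntg1*, *Sntg2* and *Drp2*, the housekeeping genes and the other peak positions were added after their values were seen. Some genes of the further lists that this rule would name are counted but not reported here.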

Additional observations from a re-analysis of the deposited data

How the results depend on the processing

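The number of complex genes higher in 3d DM was 5 as deposited and 4 to 7 under other filters, pseudocounts of 0.1 and 4, no trend, rescaling and the replicate block, and 0 to 4 with 1 input library left out. The number lower was 0 under every one of these. Partner genes called were 6 as deposited and 1 to 4 with 1 input library left out. Glycosylation and ligand genes called went from 0 to 1 each under median-of-ratios and under trimmed-mean rescaling. With 1 library left out, 1 state has a lone library that is assumed to vary like the other state, and the fits without a 3d DM library also estimate the variance differently.

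The 2 replicate numbers share only a number, since the labels tie them to no culture or day. Over the 11406 tested genes, the log2 differences between replicates 1 and 2 in GM and in 3d DM had a correlation of 0.29. With the replicate number as a block, 4 complex genes and 4 partner genes were called (among those lost were *Sgcb* at an adjusted p of 0.147 and *Sync* at 0.194), and all genes called went from 1936 to 1298. Within replicate numbers the differences in complex genes with a peak, merged peaks and median log2 fold were 2.5, 4.0 and 0.37, as without the block. Over all genes, between 145 (without 3d DM replicate 1) and 2661 (trimmed-mean rescaling) were called.

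Some single values changed sign. The *Myod1* difference was 0.12 and 0.13 on the 2 rescalings. With 1 library left out it ranged from -0.45 to 0.24, *Lama5* from -0.76 to 0.0193, *Agrn* from -0.12 to 0.77, the late *Dag1* position from -0.19 to 0.40, the long *Dag1* position from -0.39 to 0.15 and the *Sgcb* position from -0.72 to 0.17. The causes were not tested. The differences of the 9 complex genes kept their sign in all 107 pairs of a gene and a setting, 14 of which lost and 4 of which gained a call. With peaks at p of at most 1e-05 or a fold of at least 4, the difference in complex genes with a peak was 1.0 or 1.5. With 2 libraries per state no peak comparison could pass the threshold, and the unknown depth sets a limit on every missing peak.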
